A study of Mus musculus with 80 samples.

Results

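The comparison described here sets 10 lungs of CD-1 mice that breathed 40 or 120 ppm styrene (5 arrays at each dose) against 5 lungs of CD-1 mice that breathed 10 ppm. These 15 arrays, out of 80 in the series, were picked by the strain and dose given in the labels, and the arrays of air-exposed mice took no part in choosing or testing them. Every animal was an adult male from the same supplier that was put through 1 exposure of 6 h, and the whole lung was collected the next morning. CD-1 is an outbred stock, so its animals are not genetically identical. The labels name no engineered allele for CD-1, and styrene in air was the only agent. Alongside these arrays, 5 lungs of CD-1 mice kept in clean air (0 ppm) serve as a background level, and 15 lungs of C57Bl/6 wild-type mice (WT, an inbred strain) at the same 3 doses and time serve to test whether the stocks differ. The labels call the 5 arrays of each group biological replicates, without saying whether litters or exposure chambers were shared.

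Styrene is a solvent used to make plastics. In mouse lung it is oxidized by cytochrome P450 enzymes, chiefly CYP2F2 in the club cells that line the small airways, and the oxides are cleared by hydrolases and by conjugation with glutathione. A comparison of 2 exposed levels asks what separates a low exposure from higher ones within 1 stock, without an air group.

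Expression is given as log2 signal of Affymetrix probe sets, so that 1 unit is a doubling and a difference of log2 values is the log2 of a fold change. Medians of the CD-1 arrays lay between 4.24 and 4.3, and arrays of a group correlated at 0.986 to 0.994 over all probe sets. Array 40 ppm replicate 4 stood apart on the first principal component of the 15 arrays (33.8, the other 14 at most at 13.92), which held 18.4% of the variance. The defining markers of lung tissue were present: in the 15 arrays, the log2 of summed signal lay between 15.02 and 15.15 for alveolar type 1 genes, between 15.21 and 15.47 for alveolar type 2 genes and between 15.20 and 15.63 for club cell genes. The same sum for skeletal muscle and for squamous epithelium did not exceed 7.38. Among the air arrays, replicate 4 stood apart, at 12.76 for skeletal muscle, 12.51 for squamous epithelium and 12.19 for T and NK cell genes, and its part in the comparisons with air was not tested beyond leaving it out.

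Over the whole transcriptome, the 2 exposure levels were not separated by the test. Of 11406 genes tested with limma, 0 passed a Benjamini-Hochberg adjusted p of 0.05 (lowest adjusted p = 0.447), that is 0% in either direction. At an unadjusted p under 0.05 there were 508 genes (4.45%), of which 296 were higher at 40 and 120 ppm (2.6%) and 212 lower (1.86%), where 570.3 would be expected from that threshold alone. The median difference over all genes was 0.01, with a median standard error of 0.093 for a gene, and the number of arrays limits the precision. Genes are therefore described below by their values, and the few statements of a passed test are named as such. Complete separation, with all 10 arrays of the higher doses on one side of all 5 at 10 ppm, was seen in 12 genes (0.105% of those tested), 7 higher (0.0614%) and 5 lower (0.0438%). The 7 are Ifit2, Ifit3, Mx2, Ifitm3, Zbp1, Epsti1 and Daxx, and the 5 are Dpt, Slc18b1, Ttll3, Heatr6 and Cntd1. Zbp1, Epsti1, Daxx and Heatr6 are named because of this separation, after their values were seen.

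The count differed between fits. Where the spread was taken from all 80 arrays of the series in place of the 15, with the same differences, 78 genes passed (63 higher and 15 lower, 0.684% of those tested). Besides CD-1 and WT, those 80 hold lungs of engineered C57Bl/6 mice, a knockout line (labelled KO) and a humanized line (labelled TG). Each line has 5 arrays in air and at each dose. Every count below that rests on all 80 arrays includes the spread of these lines. Leaving out array 120 ppm replicate 3 gave 4 genes that passed in the fit of CD-1 arrays, namely Gm9706, Irf7, Oasl2 and Tgtp1 (adjusted p = 0.0294 for each).

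Of the 10 genes with the lowest p on the higher side, 7 are known from textbook knowledge as genes that type I interferon induces (Irf7, Tgtp1, Oasl2, Ddx60, Oas1g, Dhx58 and Mx1). Interferons are secreted alarm signals of virus-infected or damaged cells. Signalling from their receptors acts on a short DNA element, the interferon-stimulated response element (ISRE), and switches on antiviral genes. IRF7 is itself induced and amplifies interferon production. Among the 10 genes ranked highest on the higher side, 8 showed correlations with each other from 0.927 to 0.990 over the 15 arrays (Irf7, Gm9706, Tgtp1, Oasl2, Ddx60, Oas1g, Dhx58 and Mx1). These are Pearson coefficients that share arrays and dose groups, given as a description of genes that the same contrast selected.

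The ISRE core was searched as GAAA, any 2 bases and GAAA again, on both strands in RefSeq windows of 300 bases around gene starts (250 bases before and 50 after, build GRCm38.p6). It occurred in 3.44% of all 32851 windows and in 2.99% of the windows of tested genes. Counted by gene, 3.69% of tested genes with a window held it. Of the 10 highest-ranked genes, 7 had a window and 3 of these held the core, whereas 0 of the 8 genes with a window among the 10 ranked highest on the lower side did. The windows of Irf7, Oasl2, Tspan4 and Zfp346 held no core. In the interferon response list described below, 6 of 10 genes with a window held it. The windows of 4 genes that carry the element are shown, Ifit1 from the interferon response list and the others from the 10 ranked highest. Matched bases are in capitals, and each window is read 5′ to 3′ on the gene's strand. Ddx60 lies at chr8:61927837-61928136 on the plus strand, Oas1g at chr5:120887564-120887863 on the minus strand, Tgtp1 at chr11:48992197-48992496 on the minus strand and Ifit1 at chr19:34640639-34640938 on the plus strand.
Ddx60: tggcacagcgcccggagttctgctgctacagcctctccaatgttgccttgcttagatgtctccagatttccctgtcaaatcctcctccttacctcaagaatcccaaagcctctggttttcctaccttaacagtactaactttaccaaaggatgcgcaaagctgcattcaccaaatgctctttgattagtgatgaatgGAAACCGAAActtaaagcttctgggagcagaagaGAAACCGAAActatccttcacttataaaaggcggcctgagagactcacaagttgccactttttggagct
Oas1g: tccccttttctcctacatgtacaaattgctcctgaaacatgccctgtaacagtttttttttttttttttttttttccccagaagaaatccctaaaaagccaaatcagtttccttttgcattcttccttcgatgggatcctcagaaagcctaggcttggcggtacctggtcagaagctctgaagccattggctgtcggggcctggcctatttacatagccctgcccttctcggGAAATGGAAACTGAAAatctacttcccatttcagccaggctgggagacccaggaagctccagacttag
Tgtp1: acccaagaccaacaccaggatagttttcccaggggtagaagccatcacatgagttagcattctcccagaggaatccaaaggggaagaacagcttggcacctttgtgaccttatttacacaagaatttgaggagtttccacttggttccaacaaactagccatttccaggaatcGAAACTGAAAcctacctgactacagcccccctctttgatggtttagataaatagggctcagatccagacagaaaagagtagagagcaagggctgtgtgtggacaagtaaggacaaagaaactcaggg
Ifit1: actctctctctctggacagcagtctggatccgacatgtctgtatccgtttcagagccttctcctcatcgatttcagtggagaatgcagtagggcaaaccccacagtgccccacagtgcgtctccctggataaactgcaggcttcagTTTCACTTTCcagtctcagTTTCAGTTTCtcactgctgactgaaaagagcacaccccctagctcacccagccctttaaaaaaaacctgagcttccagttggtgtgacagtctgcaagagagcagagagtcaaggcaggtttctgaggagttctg
In Ddx60 the copies start 53 and 19 bases before the gene start, and in Oas1g they overlap and start 18 and 12 bases before it. In Tgtp1 the copy starts 77 bases before, and in Ifit1 both copies are on the opposite strand, starting 104 and 85 bases before. A match is a description of letters, not a measured binding site.

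Irf7, the transcription factor that amplifies interferon production, had the lowest p of all genes. Its log2 signal at 10 ppm was 4.93, 5.11, 4.84, 5.35 and 4.93. At 40 ppm it was 7.22, 6.28, 6.46, 8.57 and 7.36, and at 120 ppm it was 7.35, 7.52, 5.21, 6.47 and 6.99. Thus 9 of the 10 higher-dose arrays lay above every 10 ppm array, and 120 ppm replicate 3 lay among them. The difference was 1.91 ± 0.37 (SE, 95% interval 1.12 to 2.70), a 3.76-fold higher level (adjusted p = 0.447, limma). In air the 5 arrays read 4.64 to 5.55, and the 10 ppm mean differed from the air mean by -0.09 ± 0.39.

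Gm9706, which RefSeq lists as a pseudogene on chromosome 17, had the largest difference of the leading genes. Its probe set carries the suffix the platform uses for probes shared by several transcripts, so the source of this signal is uncertain. It read 5.05, 5.36, 5.23, 6.02 and 5.59 at 10 ppm, 7.94, 6.54, 7.24, 9.35 and 8.28 at 40 ppm, and 8.65, 9.03, 5.83, 7.53 and 7.74 at 120 ppm. The difference was 2.37 ± 0.47, or 5.16-fold (adjusted p = 0.447, limma), and again only 120 ppm replicate 3 fell within the 10 ppm range.

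Oasl2 and Oas1g belong to the 2′-5′-oligoadenylate synthetase family, which senses double-stranded RNA. Oasl2 read 5.57, 5.71, 5.32, 6.03 and 5.99 at 10 ppm, 7.53, 6.81, 6.99, 8.63 and 7.5 at 40 ppm and 7.72, 8.17, 5.68, 7.13 and 7.31 at 120 ppm. Its difference was 1.63 ± 0.34. For Oas1g, the 5 arrays at 10 ppm spanned 6.07 to 6.72 and the 10 at the higher doses spanned 6.32 to 9.44, with 9 above the 10 ppm range and a difference of 1.54 ± 0.35. Both genes have an adjusted p of 0.447.

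Mx1 encodes a GTPase that blocks influenza replication, Tgtp1 an interferon-induced GTPase, and Ddx60 and Dhx58 (LGP2) helicases that act with the RNA sensor RIG-I. Mx1 stood at 3.47 to 4.03 in the 5 arrays at 10 ppm, all below the median of the whole table (4.28), and at 4.03 to 6.83 in the other 10, a difference of 1.60 ± 0.36. Tgtp1 differed by 1.10 ± 0.22, with 8.43 to 9.22 at 10 ppm and 8.89 to 10.75 at the higher doses. Ddx60 differed by 1.15 ± 0.25 and Dhx58 by 1.28 ± 0.29. In each of these 4 genes 9 of 10 higher-dose arrays exceeded all 10 ppm arrays, and the remaining one was 120 ppm replicate 3 (adjusted p = 0.447 each, limma).

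**Figure D1:**
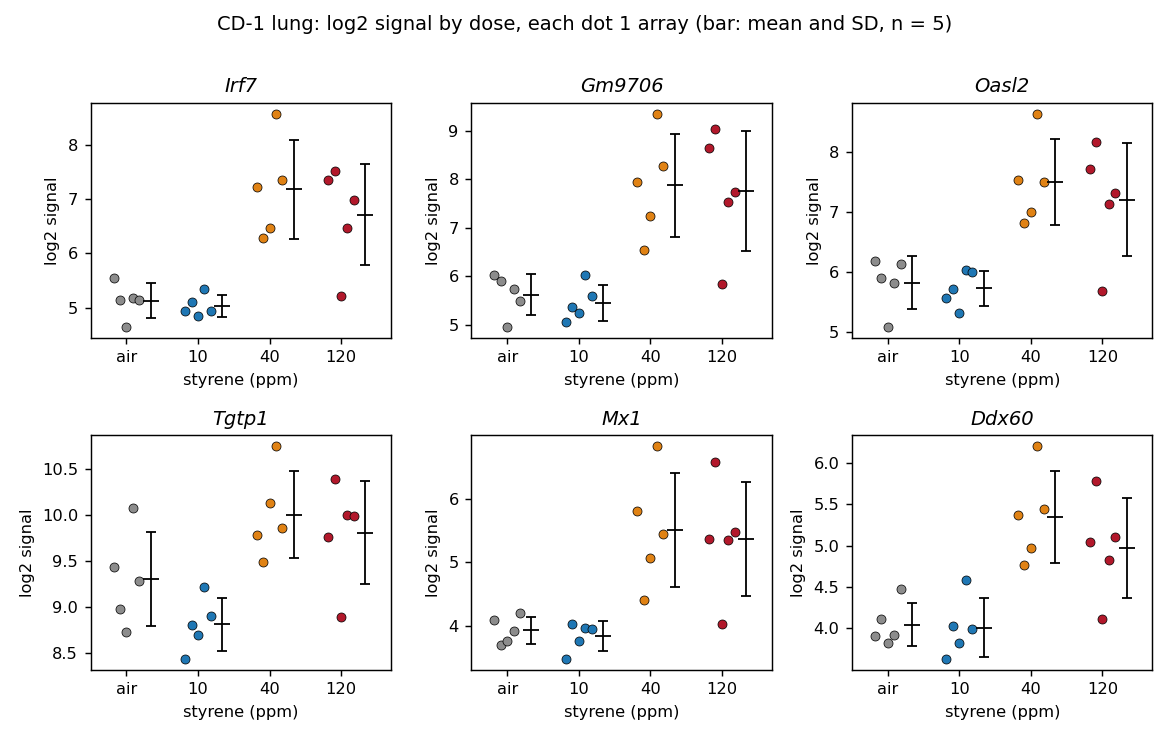
Log2 signal (vertical axis) of Irf7, Gm9706, Oasl2, Tgtp1, Mx1 and Ddx60 by styrene dose (horizontal axis, ppm) in CD-1 lung; each dot is 1 array and each bar the mean and SD of 5. Air and 10 ppm arrays lie low together, 9 of the 10 arrays at 40 and 120 ppm lie above every 10 ppm array, and the remaining array, 120 ppm replicate 3, does not.

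The interferon response list holds 18 genes, of which 14 were tested. In the fit of 15 arrays 0 of 14 passed the adjusted test and 13 of 14 had an unadjusted p under 0.05, all higher, beside 2.6% of all genes. The median difference was 1.34, against 0.01 over all genes, and was 1.37 for 40 against 10 ppm and 1.25 for 120 against 10 ppm. The list was written with results of these data known, so its direction is no independent evidence. With the spread of all 80 arrays 12 of the 14 passed, beside 0.684% of all genes in that fit. The median residual SD of the list was 0.718 within the CD-1 dose groups and 0.426 over all 80 arrays.

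By array, the list shows which lungs carry the difference. Measured from each gene's 10 ppm mean, the median over the 14 genes was 2.52 in 40 ppm replicate 4 and 2.21 in 120 ppm replicate 2, the highest. It was 0.40 in 40 ppm replicate 2 and 0.16 in 120 ppm replicate 3, the lowest, and between 0.78 and 1.57 in the other 6 arrays. In 120 ppm replicate 3 only 3 of 14 genes exceeded all 10 ppm arrays, whereas 14 of 14 did so in 5 arrays. The 10 ppm arrays stayed within -0.09 and 0.12.

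The residual spread of these genes was wider at the higher doses. The median SD over the list was 0.177 at 10 ppm, 0.781 at 40 ppm and 0.816 at 120 ppm, while the median over all genes was 0.161, 0.168 and 0.157. Within the groups of WT it was 0.390. No test of spread was made.

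**Figure D2:**
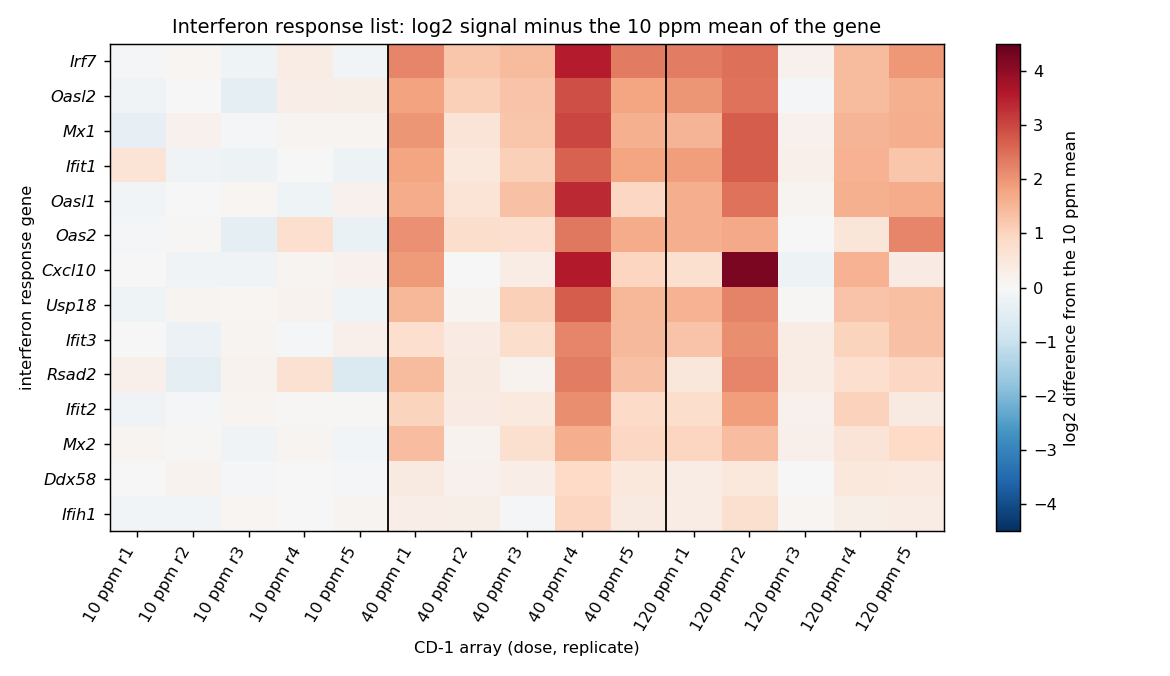
Log2 signal of the 14 interferon response genes (rows) in each of the 15 CD-1 arrays (columns, r for replicate), as the difference from the gene's mean at 10 ppm; red is higher and blue lower. Arrays 40 ppm replicate 4 and 120 ppm replicate 2 are the reddest columns (medians 2.52 and 2.21), and 120 ppm replicate 3 (0.16) resembles the 10 ppm columns.

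Among the antiviral effectors of the list, Ifit1, Ifit2 and Ifit3, which bind viral RNA or act with proteins that do, differed by 1.55 ± 0.36, 0.91 ± 0.27 and 1.16 ± 0.28. Ifit3 read 8.60 to 9.06 at 10 ppm and 9.19 to 11.03 at the higher doses, with no overlap. Mx2, a relative of Mx1, read 3.79 to 4.07 and 4.11 to 5.56, also with no overlap, a difference of 0.89 ± 0.21. Rsad2 (viperin), which makes a chain-terminating nucleotide, differed by 1.04 ± 0.35. Of the sensors, Ddx58 (RIG-I) and Ifih1 (MDA5) showed the smallest differences of the list, 0.40 ± 0.11 and 0.36 ± 0.14. Usp18, a brake on interferon signalling, differed by 1.33 ± 0.35.

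Cxcl10, a chemokine that draws activated T cells, was the one tested member above an unadjusted p of 0.05 (1.34 ± 0.64). It read 7.09 in 40 ppm replicate 4 and 7.75 in 120 ppm replicate 2, 3.27 to 5.44 in the other 8 higher-dose arrays, and 3.34 to 3.73 at 10 ppm. Its 2 highest arrays were also the highest for the whole list. Ifitm3, a membrane protein that blocks virus entry, gave a small separated shift: 11.72 to 11.90 at 10 ppm and 11.93 to 12.39 above it (0.25 ± 0.06). Zbp1, a sensor of left-handed nucleic acid, read 4.60 to 4.92 at 10 ppm and 5.11 to 7.92 at the higher doses, and Epsti1 read 4.75 to 5.97 and 5.98 to 7.34. Adjusted p values of all these genes lay at 0.487 or above.

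Marker levels of immune cells overlapped between the groups, and their part in the interferon result was not tested. The log2 sum of the macrophage genes was 12.63 to 12.97 at 10 ppm, 12.69 to 12.98 at 40 ppm and 12.35 to 12.90 at 120 ppm. That of the T and NK cell genes was 9.54 to 10.67, 9.85 to 10.86 and 10.12 to 10.65, and that of the neutrophil genes 10.47 to 12.27, 10.42 to 11.84 and 10.93 to 11.72. In these lists 0 of 11 T and NK cell genes, 0 of 11 neutrophil genes, 0 of 7 monocyte and dendritic cell genes and 1 of 10 macrophage genes tested had an unadjusted p under 0.05, the last on the lower side. Over all genes 4.45% had such a p, and 1.86% on the lower side. In whole lung, a difference can stem from the number of cells of a type or from RNA per cell, and these cannot be told apart.

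Tspan4 and Zfp346 were the leading higher genes outside the interferon group. Tspan4, a membrane tetraspanin, read 8.89, 8.04, 8.41, 8.31 and 8.46 at 10 ppm, 8.76, 8.56, 9.01, 9.15 and 8.75 at 40 ppm and 9.01, 8.95, 9.40, 9.24 and 9.45 at 120 ppm. It differed by 0.60 ± 0.13 overall and by 0.78 ± 0.15 at 120 ppm. Zfp346, a zinc finger protein that binds double-stranded RNA, differed by 0.40 ± 0.09, with 6.91 to 7.41 at 10 ppm and 7.39 to 7.83 at the higher doses. A second probe set of Zfp346, above the table median in all 15 arrays, gave a smaller difference of 0.18 ± 0.12. Over the 15 arrays these genes correlated at 0.843 with each other but at 0.396 to 0.600 with the 8 genes above, again as a description. Both have an adjusted p of 0.447.

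On the lower side the differences were smaller. Slc18b1, a vesicular polyamine transporter, read 7.73, 7.80, 7.65, 7.70 and 7.71 at 10 ppm, and 7.38 to 7.56 at the higher doses. The difference was -0.23 ± 0.05 with no overlap (adjusted p = 0.447, limma). Dpt (dermatopontin), a small protein of the collagen matrix, read 10.78, 10.90, 10.95, 10.95 and 10.76 at 10 ppm and 10.48 to 10.70 at the higher doses, a difference of -0.26 ± 0.06. In air Slc18b1 ranged from 7.21 to 7.76 and Dpt from 10.36 to 10.96, so the air arrays spanned both exposure levels.

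Il1r1, the receptor for interleukin-1, stood at 7.37 to 7.78 at 10 ppm and 6.80 to 7.60 at the higher doses, with 8 of 10 arrays below all at 10 ppm and a difference of -0.40 ± 0.10. Kcnk2 (TREK-1), a stretch-activated potassium channel, differed by -0.50 ± 0.13, also with 8 of 10 arrays below. Gem, a small GTPase that acts on calcium channels, differed by -0.42 ± 0.10 (9 of 10 below). Ttll3, a tubulin glycine ligase of cilia, differed by -0.37 ± 0.10 (10 of 10 below). Its higher-dose arrays read 3.676 to 4.233, all under the table median (4.28), and those at 10 ppm 4.235 to 4.587. The groups thus nearly touch at a low signal, and other probe sets of the gene gave -0.15 and 0.03. Ccdc62, Ccnjl, Dpysl3 and Zfp106 completed the 10 lowest p values on this side, with differences from -0.45 to -0.33 and adjusted p of 0.447 to 0.5.

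Clock genes formed the other group with many low p values. The circadian clock is a feedback loop in nearly every cell. ARNTL (BMAL1) pairs with CLOCK or NPAS2 at E-box elements to drive Per, Cry and Nr1d, whose products then oppose these activators. The same pairs also drive the PAR-domain output factors Dbp, Tef and Hlf. Levels of these genes swing over the day, so the hour of collection matters. The labels give the morning as the time of collection and no hour per animal, and its part in the result was not tested. Of 20 clock genes 17 were tested, 0 passed and 11 had an unadjusted p under 0.05, 8 higher and 3 lower, beside 2.6% and 1.86% of all genes. The median over the list was 0.25, with 0.16 at 40 ppm and 0.46 at 120 ppm against 10 ppm. With the spread of all 80 arrays 4 of 17 clock genes passed, beside 0.684% of all genes. These were Arntl, Per3, Tef and Dbp, the last at an adjusted p of 0.04996 (limma). Their residual SDs within the CD-1 dose groups were 0.542, 0.528, 0.352 and 0.872. Over all 80 arrays the same SDs were smaller, at 0.403, 0.370, 0.242 and 0.778.

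Dbp, an output factor of the clock, had the largest difference. It read 7.23, 4.47, 6.88, 6.45 and 7.40 at 10 ppm, 7.86, 7.02, 8.19, 6.40 and 8.06 at 40 ppm and 8.07, 8.0, 8.72, 9.14 and 9.06 at 120 ppm. All 5 arrays at 120 ppm lay above all at 10 ppm, whereas those at 40 ppm overlapped both. The share of all genes in which 120 ppm separates from 10 ppm was not counted. Such separations, here and for other genes, are therefore given as values only. The pooled difference was 1.56 ± 0.43 (adjusted p = 0.514, limma), made up of 1.01 ± 0.49 at 40 ppm and 2.11 ± 0.49 at 120 ppm. In air Dbp ran from 4.44 to 8.03, overlapping the arrays of all 3 doses.

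The activators stood on the other side. Arntl read 5.90, 7.07, 5.79, 6.21 and 5.69 at 10 ppm, 6.11, 5.97, 5.61, 6.18 and 5.14 at 40 ppm and 5.26, 5.15, 3.94, 4.05 and 4.82 at 120 ppm. Its difference was -0.91 ± 0.27 in the pooled comparison and -1.49 ± 0.31 at 120 ppm, and 120 against 40 ppm gave -1.16 ± 0.31 (adjusted p = 0.904, limma). Npas2 differed by -0.95 ± 0.26, with 4.15 to 6.00 at 10 ppm and 3.12 to 4.12 at 120 ppm. Nfil3, a repressor of the PAR-domain factors' targets, differed by -0.56 ± 0.26. Clock itself gave -0.18 ± 0.09. Of the repressors, Per1 also lay on the lower side (-0.45 ± 0.36), and Cry1 and Cry2 gave 0.17 ± 0.11 and 0.14 ± 0.10.

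Per3 (0.86 ± 0.26), Hlf (0.74 ± 0.26), Per2 (0.60 ± 0.28), Ciart (0.57 ± 0.22), Nr1d2 (0.55 ± 0.22) Tef (0.52 ± 0.18) and Bhlhe40 (0.31 ± 0.11) lay on the same side as Dbp. For each of these 7 genes the 120 ppm difference was larger than the one at 40 ppm, for example 1.24 ± 0.30 against 0.24 ± 0.30 for Hlf. Array 10 ppm replicate 2 held the lowest Dbp, Per3, Hlf, Nr1d2 and Tef and the highest Arntl and Npas2 of its group. With this array left out, Dbp gave 1.06 and Per3 0.59, in place of 1.56 and 0.86. Over all genes 0 passed the adjusted test with or without it (lowest adjusted p = 0.733 without it, limma). That count therefore cannot show how far the clock values rest on this array. The E-box CACGTG occurred in the windows of 4 of 14 clock genes that had one (28.6%), beside 11.5% of tested genes with a window.

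**Figure D3:**
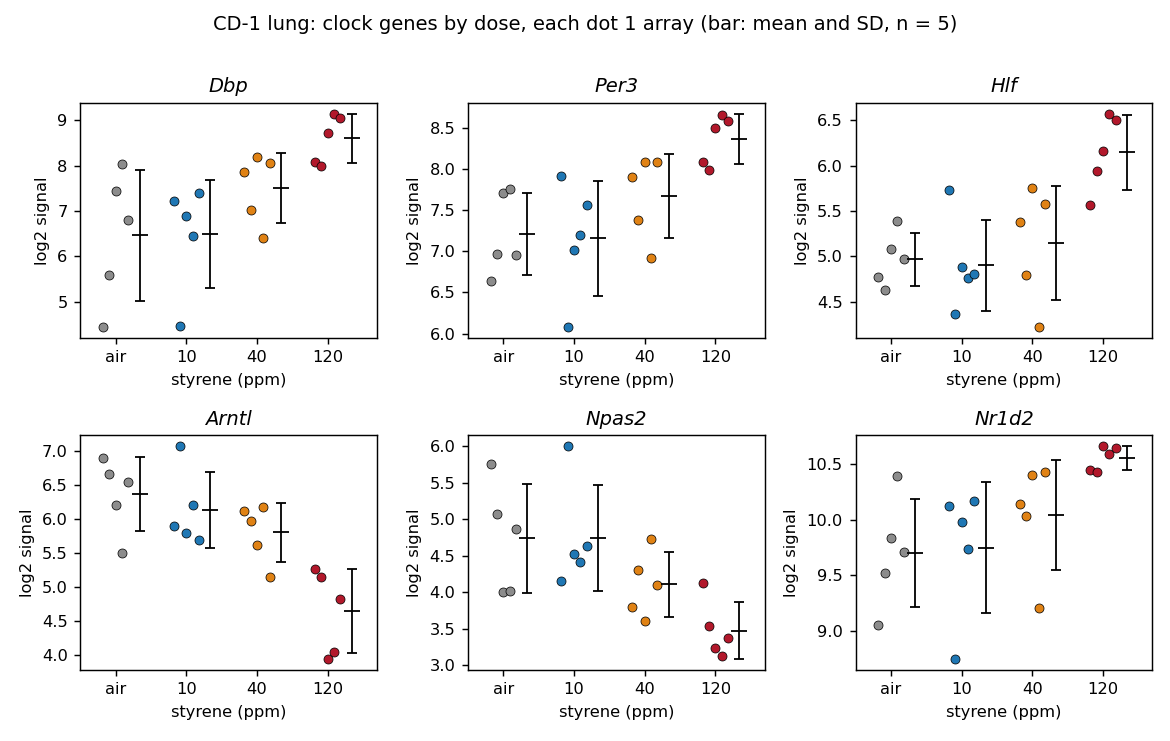
Log2 signal (vertical axis) of clock genes by styrene dose (horizontal axis, ppm) in CD-1 lung; each dot is 1 array and each bar the mean and SD of 5. At 120 ppm Dbp lies above and Arntl below every 10 ppm array, while the air, 10 and 40 ppm arrays overlap widely.

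The higher doses were also compared with each other. For 120 against 40 ppm, 0 of 11406 genes passed in limma (lowest adjusted p = 0.310, 526 genes or 4.61% at an unadjusted p under 0.05), and 34 passed with the spread of all 80 arrays. For 40 against 10 ppm 0 passed (417 genes, 3.66%, unadjusted) and for 120 against 10 ppm 0 passed (626 genes, 5.49%), with 48 and 107 under the spread of all 80 arrays. Without 10 ppm replicate 1, 3 genes passed for 120 against 10 ppm: Ccnjl, Dpysl3 and Tspan4 (-0.85, -0.62 and 0.90). All 5 arrays at 120 ppm lay above all at 40 ppm in 29 genes (0.254%) and below in 37 (0.324%).

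Outside the clock list, Stk36 and Acot1 had a larger difference from 10 ppm at 120 ppm than at 40 ppm. Stk36, a kinase of the Hedgehog pathway needed for motile cilia, read 5.21, 5.76, 5.32, 5.06 and 4.81 at 10 ppm and 7.24, 6.30, 6.14, 6.67 and 6.94 at 120 ppm, with 4.82 to 5.41 in 4 arrays at 40 ppm and 6.31 in 40 ppm replicate 1. The difference was 1.43 ± 0.26 at 120 ppm (adjusted p = 0.215, limma) and 0.20 ± 0.26 at 40 ppm. Acot1, a cytosolic thioesterase that splits fatty acyl-CoA, read 7.29 to 7.71 at 10 ppm, 7.21 to 7.78 at 40 ppm and 6.27 to 7.00 at 120 ppm, a difference of -0.80 ± 0.14 at 120 ppm and 0.03 ± 0.14 at 40 ppm. Its close paralog Acot2, whose probe set is of the shared kind and may read Acot1 too, differed by -0.53 ± 0.14 at 120 ppm, and a second probe set of Acot2 gave the opposite sign in the pooled comparison (0.14 against -0.14). Zfp979 differed by 1.46 ± 0.30 between 120 and 40 ppm.

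The list of fatty acid oxidation genes and targets of the lipid-sensing PPAR receptors had 2 of 16 genes with an unadjusted p under 0.05. These were the PPAR targets Acot1 and Angptl4, both lower, beside 1.86% of all genes. Angptl4, a lipoprotein lipase inhibitor, read 7.77 to 8.45 at 10 ppm, 7.22 to 8.94 at 40 ppm and 6.86 to 7.49 at 120 ppm. All 120 ppm arrays thus lay below all at 10 ppm (-1.12 ± 0.25 at that dose, adjusted p = 0.474, limma). The share of all genes with such a separation was not counted. Fabp1 gave -0.53 ± 0.28 and Acadm -0.07 ± 0.07. The median of the list was -0.01, and enzymes of beta-oxidation such as Cpt1a, Hadhb and Acadl lay within 0.08 of no difference.

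Most genes of styrene and xenobiotic metabolism differed little between the exposures. Cyp2f2, the main styrene oxidase of mouse lung, read 13.07, 13.12, 12.79, 12.92 and 12.80 at 10 ppm, 12.85, 12.93, 12.93, 12.50 and 12.96 at 40 ppm and 13.13, 12.63, 12.92, 12.94 and 12.99 at 120 ppm. The groups overlapped and the difference was -0.06 ± 0.09 (95% interval -0.26 to 0.14). Of 29 genes of the list tested, 0 passed, 4 were lower and 1 higher at an unadjusted p under 0.05, beside 1.86% and 2.6% of all genes, and the median was -0.04.

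The 4 lower genes were Aox3, Pon1, Ces1f and Aox1. Aox3 and Aox1 are aldehyde oxidases, which can oxidize aldehydes and aromatic heterocycles. Aox3 read 9.21 to 9.56 at 10 ppm and 8.47 to 9.27 at the higher doses, a difference of -0.43 ± 0.12 (adjusted p = 0.551, limma), with 7 of 10 arrays below all at 10 ppm. Aox1 differed by -0.30 ± 0.10. Ces1f, a carboxylesterase, read 6.41, 7.34, 5.76, 5.55 and 5.51 at 10 ppm and 4.58 to 5.73 at the higher doses, a difference of -0.86 ± 0.28, or -0.55 without 10 ppm replicate 2. Its air arrays read 5.14 to 5.85, so the 10 ppm mean lay 0.65 ± 0.30 above air, and its probe set may read other members of the Ces1 cluster. On the higher side, Cyp2a5, a P450 that oxidizes many small solvents, gave 0.90 ± 0.38 (adjusted p = 1.00, limma).

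Pon1 was the one gene that passed a test against air. Paraoxonase 1 is a lactonase and esterase, listed here among the club cell genes. It read 10.53 to 10.97 in air, 10.42, 10.11, 10.07, 10.15 and 9.56 at 10 ppm, 8.80, 9.32, 9.45, 8.93 and 9.81 at 40 ppm and 9.81, 9.36, 10.21, 9.87 and 9.5 at 120 ppm. All 10 higher-dose arrays lay below all air arrays, and 6 of them below all 10 ppm arrays. Pon1 fell by 1.22 ± 0.16 from air to the higher doses (adjusted p = 0.00449 over 11406 genes, limma, 20 CD-1 arrays, 0.00877% of genes called). Without air replicate 4 the difference was -1.15 (adjusted p = 0.0361, limma). The difference from 10 ppm was -0.56 ± 0.18 (adjusted p = 0.711, limma), with -0.80 ± 0.20 at 40 ppm and -0.31 ± 0.20 at 120 ppm. The comparison of 10 ppm with air, which shares both groups with these, gave -0.66 ± 0.19 (adjusted p = 1.00).

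Scgb1a1, the secretoglobin that defines the cell, differed by -0.02 ± 0.05, Scgb3a2 by -0.17 ± 0.10 and Cldn10, a tight junction protein, by 0.16 ± 0.11, and the median of the 12 genes was -0.05. Scgb3a1, another secretoglobin, read 9.81 in 120 ppm replicate 2 and 9.96 in 120 ppm replicate 4 and 12.00 to 12.94 in the other 13 arrays. Its difference was -0.40, and -0.19 or -0.21 without the one or the other of these arrays. Pon1 was thus the 1 of 12 club cell genes with an unadjusted p under 0.05, on the lower side, beside 1.86% of all genes.

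**Figure D4:**
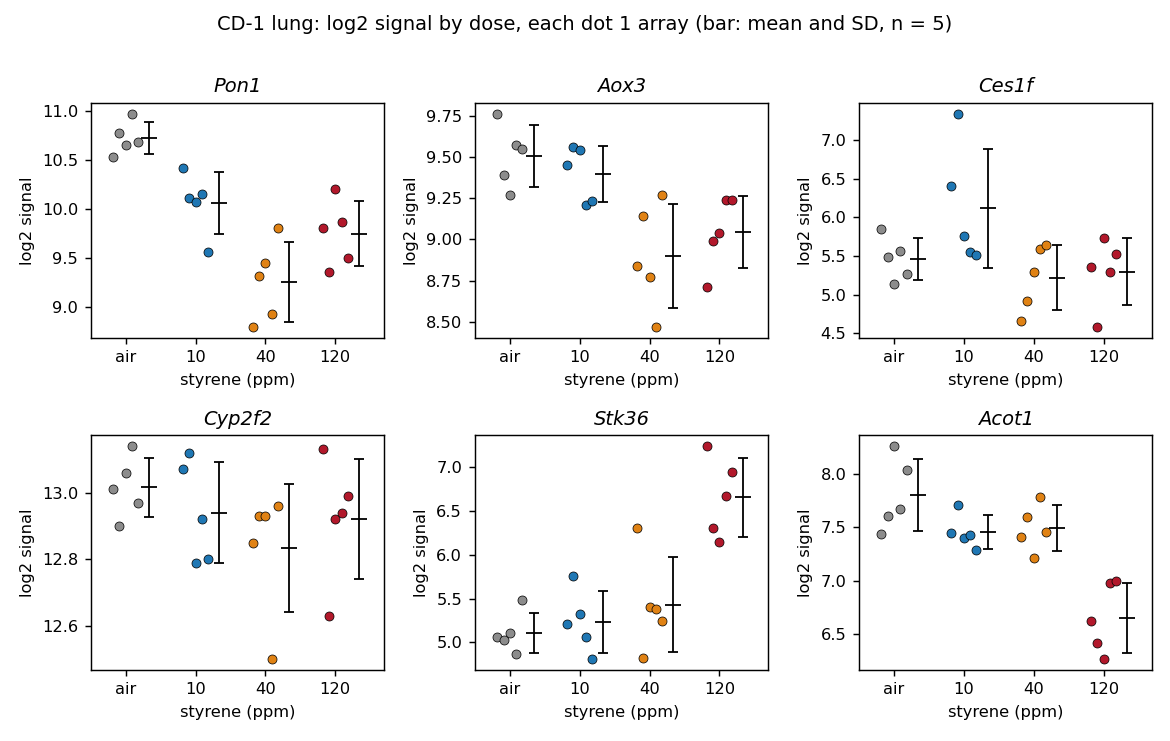
Log2 signal (vertical axis) by styrene dose (horizontal axis, ppm) of Pon1, Aox3, Ces1f, Cyp2f2, Stk36 and Acot1 in CD-1 lung; each dot is 1 array and each bar the mean and SD of 5. Pon1 lies below its air range (10.53 to 10.97) in every array at 10, 40 and 120 ppm. Cyp2f2 overlaps at all doses, and Acot1 at 120 ppm lies below every array at 10 and 40 ppm. Stk36 at 120 ppm lies above every 10 ppm array but overlaps 40 ppm replicate 1 (6.31).

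Genes of DNA replication tended to the higher side. Of 24 tested, 0 passed and 6 had an unadjusted p under 0.05, all higher, beside 2.6% of all genes, and the median was 0.32 (0.35 at 40 ppm, 0.28 at 120 ppm). The count was not stable: over the alternatives it ran from 0 (without 10 ppm replicate 1) to 18 (with all 80 arrays in the fit). It was 1 to 4 without 10 ppm replicate 2, 3, 4 or 5, without 40 ppm replicate 3 or 4, or without 120 ppm replicate 1, 2 or 4, and 10 without 40 ppm replicate 1. The median stayed between 0.23 and 0.40. Mcm3 and Mcm4, parts of the ring helicase that opens DNA at origins, differed by 0.40 ± 0.17 and 0.31 ± 0.12. Mcm3 read 5.16 to 5.57 at 10 ppm and 5.38 to 6.56 at the higher doses, with 8 of 10 arrays above all at 10 ppm, and was highest in 40 ppm replicate 4 (6.56) and 120 ppm replicate 2 (6.32). Pold1, the catalytic subunit of polymerase delta, gave 0.31 ± 0.14. Cdc6, which loads the helicase, gave 0.60 ± 0.27 and also peaked in 40 ppm replicate 4 (5.55) and 120 ppm replicate 2 (5.36). These are the arrays with the highest interferon values.

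Genes of mitosis showed less. Of 13 tested, 0 had an unadjusted p under 0.05, and the median was 0.17. Cdk1, the kinase that starts mitosis, read 4.33 to 5.60 at 10 ppm and 4.34 to 7.40 at the higher doses (0.51 ± 0.41), with its highest values in 40 ppm replicate 4 and 120 ppm replicate 2. Top2a gave 0.41 ± 0.38, Bub1 0.31 ± 0.27 and Ccna2 0.24 ± 0.31. Without 40 ppm replicate 4 the median of the list was 0.03, Cdk1 gave 0.27 and Ccna2 0.04, and without 120 ppm replicate 2 the median was 0.09.

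Fibroblast and matrix genes gave 3 of 11 with an unadjusted p under 0.05, all lower, beside 1.86% of all genes: Dpt, Eln and Col1a1. Eln, the elastic fibre protein, read 8.51 to 9.55 at 10 ppm, 8.09 to 9.39 at 40 ppm and 7.79 to 8.78 at 120 ppm, a difference of -0.61 ± 0.23 overall and -0.94 ± 0.27 at 120 ppm. Col1a1, a chain of type I collagen, differed by -0.31 ± 0.14 and Dcn, a small proteoglycan, by -0.19 ± 0.16. Without 10 ppm replicate 2 these were -0.18 for Col1a1 and -0.07 for Dcn. The list's log2 sum was 13.60 to 13.86 at 10 ppm, 13.52 to 13.74 at 40 ppm and 13.47 to 13.66 at 120 ppm, and its median difference was -0.10.

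The test did not separate CD-1 lungs at 10 ppm from those in air, and likeness as such was not tested. Of 11406 genes 0 passed (lowest adjusted p = 1.00, limma), and 272 (2.38%) had an unadjusted p under 0.05. The interferon list had a median of -0.09 against air. Ces1g, a carboxylesterase, read 4.17 to 5.18 in air and 5.39 to 6.66 at 10 ppm (1.15 ± 0.28), and stayed at 5.15 to 6.66 at the higher doses. Usp20, a deubiquitinase, read 5.59 to 5.92 in air, 5.13 to 5.59 at 10 ppm and 5.53 to 5.78 at the higher doses, so that the 10 ppm group was the low one (-0.39 ± 0.08 against air, 0.28 ± 0.07 for the higher doses against 10 ppm). Itih1 (-0.41 ± 0.12 against air) and Cntd1 (0.19 ± 0.05) were the other genes with the lowest p values in their direction. This comparison and the main one share the 10 ppm arrays.

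Whether CD-1 and WT differ was tested directly, as the difference between higher doses and 10 ppm in CD-1 minus the same in WT (30 arrays). In limma 20 of 11406 genes passed (0.175%, beside 8.95% at an unadjusted p under 0.05), 14 higher in CD-1 (0.123%) and 6 lower (0.0526%). WT alone had 122 genes that passed between the higher doses and 10 ppm (1.07%). The count for the stocks is unstable: 9 genes passed without the filter on low signal, 147 genes with array weights, and between 1 and 58 when 1 array was left out. The single gene that passed without WT 10 ppm replicate 4 was Ppp1r14d, and the 58 came without WT 10 ppm replicate 1.

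By textbook knowledge, applied after the values were seen, 8 of the 14 higher genes are interferon-induced: Irf7, Oasl2, Oas1g, Tgtp1, Parp14, Ifitm3, Rtp4 and Rnf213. For Irf7 the CD-1 difference exceeded that of WT by 2.30 ± 0.45 (adjusted p = 0.0294), for Oasl2 by 2.03 ± 0.42 and for Oas1g by 2.05 ± 0.43 (adjusted p = 0.0393 each). In WT the same genes differed by -0.38 ± 0.21, -0.40 ± 0.20 and -0.52 ± 0.21. WT mice expressed Irf7 at 8.11 to 9.42 at 10 ppm and 8.03 to 9.21 at 40 ppm, above all CD-1 arrays at 10 ppm (4.84 to 5.35), and the highest CD-1 array (8.57) lay within the WT range. At 120 ppm WT read 8.29 to 8.80. The test compares differences within a stock, not these levels. Over 36 alternatives the call was lost in 9 for Irf7, 17 for Oasl2, 19 for Oas1g, 16 for Tgtp1, 19 for Parp14, 23 for Ifitm3, 23 for Rtp4 and 24 for Rnf213. Of the 14 genes of the interferon list, 2 passed this test, and the list median was 1.5 in CD-1 minus WT and -0.25 in WT.

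Cyp1a1, the dioxin-inducible P450, gave the largest gap, 2.94 ± 0.64 (adjusted p = 0.0471), and it rested mostly on WT: there it fell by 2.45 ± 0.37 from 10 ppm to the higher doses, while CD-1 gave 0.49 ± 0.47 with 3.57 to 5.44 at 10 ppm and 3.58 to 7.14 above it. Its call between stocks was lost in 26 of 36 alternatives, the replicate block, quantile normalization and no filter on low signal among them. Cldn10 (0.86 ± 0.15), the anion transporter Slco1a5 (1.04 ± 0.19) and Ppp1r14d, an inhibitor of a protein phosphatase (1.45 ± 0.23, adjusted p = 0.00905), also fell in WT, with CD-1 values of 0.16 ± 0.11, 0.20 ± 0.12 and 0.52 ± 0.17.

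The 6 genes with a lower difference in CD-1 were Adm, Eln, Clca3a2, Clca3a1, Cdkn1c and Magi1. Adm (adrenomedullin, a vasodilator peptide) differed by -0.63 ± 0.22 in CD-1 and 0.86 ± 0.20 in WT, a gap of -1.49 ± 0.32 (adjusted p = 0.0402). Within CD-1, Adm read 5.68 to 6.71 at 10 ppm and 4.67 to 5.19 at 120 ppm with no overlap. How many of all genes separate in this way was not counted. Eln gave -0.61 ± 0.23 in CD-1 and rose by 0.77 ± 0.15 in WT, a gap of -1.38 ± 0.29. Clca3a2 and Clca3a1, regulators of chloride channels whose probe sets may read each other's transcript, rose in WT by 1.20 ± 0.16 and 1.07 ± 0.17. In CD-1 both stayed under the table median, with differences of 0.01 ± 0.12 and -0.06 ± 0.10. Cdkn1c, a cyclin-dependent kinase inhibitor, rose by 0.67 ± 0.09 in WT against -0.11 ± 0.11 in CD-1. The call was lost in 21 of 36 alternatives for Adm, 18 for Eln and 14 for Magi1. For Cyp2f2 the gap was 0.32 ± 0.12 (adjusted p = 0.378) with a fall by 0.38 ± 0.08 in WT.

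**Figure D5:**
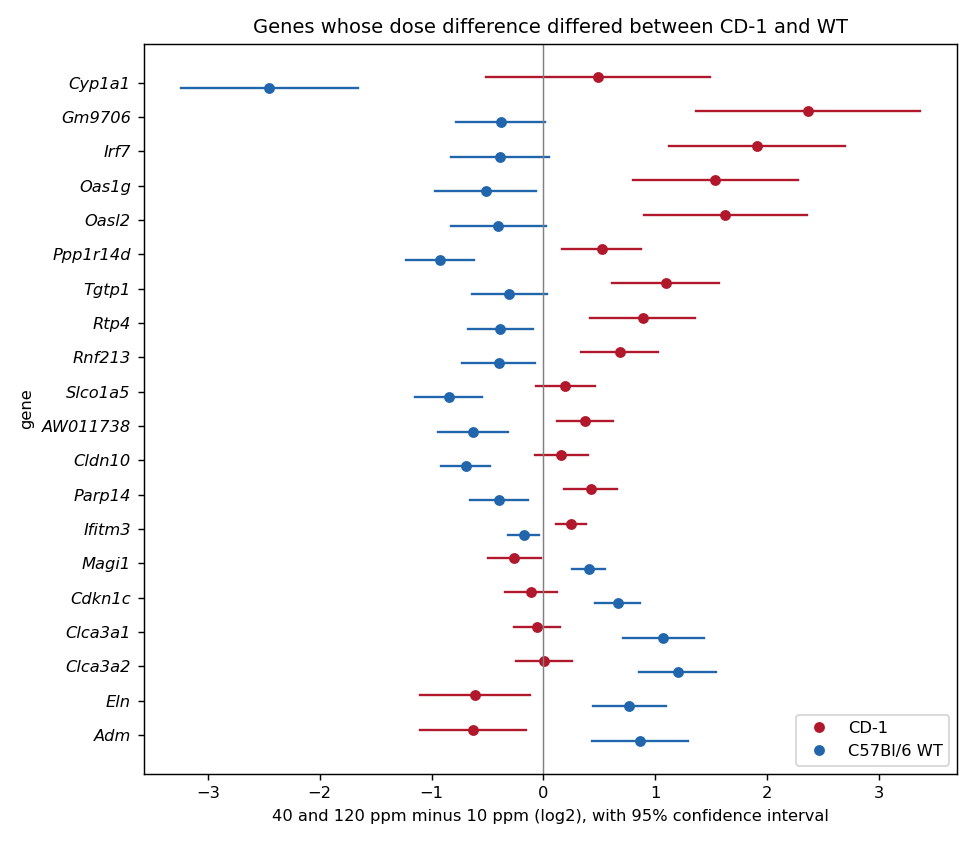
Log2 difference between the higher doses (40 and 120 ppm) and 10 ppm with its 95% confidence interval (horizontal axis) for the 20 genes (vertical axis) that passed the test between stocks; CD-1 in red, C57Bl/6 WT in blue. The interferon-induced genes lie to the right in CD-1 and left of or near 0 in WT, and Cyp1a1 lies at -2.45 in WT.

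The remaining marker and pathway lists held few genes with a low p. Ciliated, alveolar type 1, alveolar type 2, endothelial, smooth muscle and pericyte, B cell, plasma cell and erythroid markers had 0 genes with an unadjusted p under 0.05 in the comparison of exposures, and their medians lay between -0.06 and 0.03. NRF2 and glutathione genes (0 of 20), AHR targets (0 of 6), p53 targets (0 of 15), genes of the unfolded protein response (0 of 21) and heat shock genes (0 of 10) also had 0 such genes. Inflammation genes had 0 of 19 and a median of -0.01. A few lists held genes on the lower side, beside 1.86% of all genes. They were 2 of 11 hypoxia genes (Adm and Hk2, the latter at -0.23) and 2 of 19 splicing factor genes (Malat1 at -0.32 and Tra2b at -0.30). Of the glucocorticoid response genes 1 of 17 (Angptl4) was lower, and of the immediate early genes 1 of 17. The last was Fos, a transcription factor that stimulated cells make within minutes, at -0.37 ± 0.13. Of the 17 immediate early differences 14 were negative, where the median over all genes was 0.01.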

How the data were processed

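Whole-lung RNA of 80 mice was measured on Affymetrix HT MG-430 PM arrays, 1 per mouse. Per the submitters' processing notes, RMA and Partek were used (versions not given), and the deposited values are log2 expression of 45037 probe sets, taken as the authors normalized them. No source used here gives the settings of that step or a genome build.

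Probe sets were named from the platform annotation (28898 with 1 symbol, 551 with several and left out, 15588 not listed), of which 28689 matched RefSeq (GRCm38.p6). A gene was represented by its probe set with the highest mean over the 80 arrays, and was tested if above the table's median (4.28) in at least 5 arrays, leaving 11406 of 17097 genes. The test was limma's moderated linear model (version 3.58.1, run under R 4.3.3) on the 15 arrays, with 1 mean per dose and the average of 40 and 120 ppm set against 10 ppm, and Benjamini-Hochberg adjustment over all genes at 0.05. Values after ± are standard errors of n = 5 and 10 arrays unless said otherwise, and p values measure the spread between these arrays. Air comparisons used 20 CD-1 arrays, and the test between stocks 30. The code was tested on simulated data.

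Named genes were Cyp2f2, the 10 with the lowest p in each direction (none passed), up to 4 members of each list with the lowest p, and for other comparisons the 5 largest rises and falls that passed or, where none did, the 2 lowest p in each direction. Further members of the interferon and clock lists, the other genes that passed between stocks and a few more were named after their values were seen. The members and lists were chosen with earlier results of these data known. Same-numbered replicates were checked for pairing: 3 of 15 pairs had a correlation of deviations over 0.1 (-0.301 to 0.385), so the numbers were not taken as pairs. Alternatives were filters, probe set rules, normalizations, array weights, the replicate number as a block, all 80 arrays in 1 fit, and leaving out each array.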

Additional observations from a re-analysis of the deposited data

Results flagged for a closer look

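Within groups of 5 arrays, 4 values stood far from the rest by Dixon's criterion (0.71), among 78 groups of 26 genes, where 3.9 would arise by chance. Cyp2f2 was 12.5 in 40 ppm replicate 4 (the next lowest 12.85), and Ttll3 was 3.68 in the same array (next 4.09). Ifit1 was 7.93 in 10 ppm replicate 1 (next highest 7.27), and Npas2 was 6.00 in 10 ppm replicate 2 (next 4.63).

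The difference between higher doses and 10 ppm was tested between CD-1 and WT, and 20 genes passed (limma, adjusted p at or below 0.05). The log2 difference in CD-1 minus that in WT was 2.94 for Cyp1a1, 2.75 for Gm9706, 2.30 for Irf7, 2.05 for Oas1g, 2.03 for Oasl2, 1.45 for Ppp1r14d, 1.40 for Tgtp1, 1.27 for Rtp4, 1.08 for Rnf213, 1.04 for Slco1a5, 1.00 for AW011738, 0.86 for Cldn10, 0.82 for Parp14 and 0.42 for Ifitm3. It was -1.49 for Adm, -1.38 for Eln, -1.19 for Clca3a2, -1.13 for Clca3a1, -0.78 for Cdkn1c and -0.66 for Magi1.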

How the results depend on the processing

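With all 80 arrays in the fit, 78 genes passed for the higher doses against 10 ppm, 48 for 40 against 10 ppm, 107 for 120 against 10 ppm and 34 for 120 against 40 ppm, in place of 0 each; this fit takes its spread from the arrays of all strains. The other processing alternatives gave 0 for these comparisons. Leaving out 1 array at a time gave 0 to 4 genes for the main comparison (4 without 120 ppm replicate 3), 0 to 3 for 120 against 10 ppm (3 without 10 ppm replicate 1) and 1 to 9 for the higher doses against air (9 without 120 ppm replicate 3). Array weights gave 2 genes against air. For CD-1 minus WT, in place of 20, there were 9 without the filter on low signal, 147 with array weights, and 1 to 58 with 1 array left out (1 without WT 10 ppm replicate 4, 58 without WT 10 ppm replicate 1). For WT alone, in place of 122, there were 378 with array weights, 71 with the replicate block and 27 to 218 with 1 array left out (without WT 10 ppm replicates 4 and 5). The cause of these shifts was not tested. With the replicate number as a block, 0 genes passed the main comparison (lowest adjusted p = 0.286), 27 passed between stocks (17 of the 20 among them, without Cyp1a1, Ifitm3 and Parp14) and 1 against air; the numbers do not pair the samples. The one named gene whose direction reversed was Cyp2f2, from -0.062 to 0.0213 with array weights. With 5 to 10 arrays a group and no measure of signal over background in the table, levels below the table median (Mx1 and Ddx60 at 10 ppm among them) are uncertain.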
